A study of Homo sapiens with 3 samples.

Results

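YBX1 peaks on AGAT tandem repeats are the stretches of HEL chromatin where an antibody against YBX1 recovered DNA that the submitters' annotation places on a simple repeat with the 4-base unit AGAT. Members were all peaks of chromosomes 1 to 22, in either deposited list, whose repeat name equals AGAT after rotation or strand reversal. Replicate 1 held 4678 of them among 22874 peaks and replicate 2 held 4347 among 17285, which is 9025 of 40159 peaks over both lists. A further 694 and 583 AGAT peaks of X, Y and alternative contigs were left out. HEL is an established human erythroleukaemia line, and its JAK2 gene carries the V617F mutation. The groups were 2 YBX1 immunoprecipitations, replicates 1 and 2, from untreated HEL cells, and 1 input library of sheared chromatin from the same line. The series addressed where YBX1 sits on chromatin in JAK2-mutated cells. All libraries came from 1 cell line, separate cultures for the replicates are not stated, and no mock immunoprecipitation was analysed here. Recovery of repeats without YBX1 was therefore not measured.

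YBX1 binds DNA and RNA through its cold-shock domain, and it is best known for its roles in mRNA packaging, splicing and translation. It was named for the Y-box, a promoter element with the letters CCAAT. Short tandem repeats such as AGAT are stretches in which a unit follows itself many times. They vary in copy number between people and are hard to map with short reads, because a read that lies wholly inside a repeat can match many places. Once duplicates were removed, replicate 1 had 10010819 tags and replicate 2 had 9926271, against 74780414 in the input. A tag is 1 mapped read of 36 bp.

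The members carried only the names (TAGA)n and (TCTA)n, which are the same unit read on either strand. They are written out here as 5 copies, beside the unit ATCC, the most frequent other tandem repeat in the lists, under its names (TGGA)n and (TCCA)n. Capitals mark the base at which an AGAT unit and the ATCC unit differ.
AGAT-type repeat, forward, listed as (TAGA)n: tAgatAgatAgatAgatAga
ATCC-type repeat, forward, listed as (TGGA)n: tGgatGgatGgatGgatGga
AGAT-type repeat, reverse, listed as (TCTA)n: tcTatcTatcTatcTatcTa
ATCC-type repeat, reverse, listed as (TCCA)n: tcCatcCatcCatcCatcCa
Counted from 1 at the 5′ end of the unit, the change between AGAT and ATCC is A2G on the first strand and T3C on the other, 1 base per unit. Each repeat was searched for short words together with its reverse complement. The letters GATA, the core of the motif of GATA transcription factors, occur on the (TAGA)n strand of AGAT repeats and on neither strand of ATCC repeats. The letters CATC occur on the (TCCA)n strand of ATCC repeats and on neither strand of AGAT repeats, and CCAAT occurs in neither repeat. These are descriptions of the letters alone, since the genome sequence under the peaks was not analysed here.

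AGAT repeats carried a large share of the YBX1 peaks on chromosomes 1 to 22, and their median fold enrichment was above that of each of the 5 other classes of peaks in both lists. They were 21.7% of replicate 1 peaks (95% Wilson interval 21.2% to 22.3%) and 26.8% of replicate 2 peaks (26.1% to 27.5%), a mean of 24.3% ± 3.61 (SD, n = 2). The mean share was 37.8% among peaks with a score of at least 100, and 38.9% when peaks of any class within 1 kb of each other were merged and the strongest gave the class. Both settings favour a class with strong peaks, so these 2 shares are not separate from the fold enrichments. The score is 10 times the negative log10 of the caller's p-value. Intervals on shares cover counting error only. The strands were balanced: (TCTA)n had 2389 peaks and (TAGA)n 2289 in replicate 1, and 2195 and 2152 in replicate 2. Median fold enrichment was 93.4 and 91.3 for these names in replicate 1 and 80.7 and 79.8 in replicate 2.

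Each peak of the lists has a fold enrichment, the authors' ratio of tags at its summit to the local background. AGAT peaks had a median fold enrichment of 92.4 in replicate 1 and 80.6 in replicate 2, a mean of 86.5 ± 8.39 (SD, n = 2). ATCC peaks had 66.7 and 54.4, and peaks on ACC repeats 64.5 and 57.9. Peaks without any annotated repeat had 41.5 and 40.8. On the log2 scale the median of AGAT peaks lay above that of ATCC peaks by 0.47 in replicate 1 and by 0.57 in replicate 2, a mean of 0.52 ± 0.07 (SD, n = 2). Among peaks with a score of at least 100 the mean difference was 0.32. It lay above that of peaks without a repeat by 1.16 and 0.98. These differences were not tested, since the design has 2 libraries of 1 group and peaks of a list are not replicates. Both replicates gave the same direction for each class compared.

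**Figure D1:**
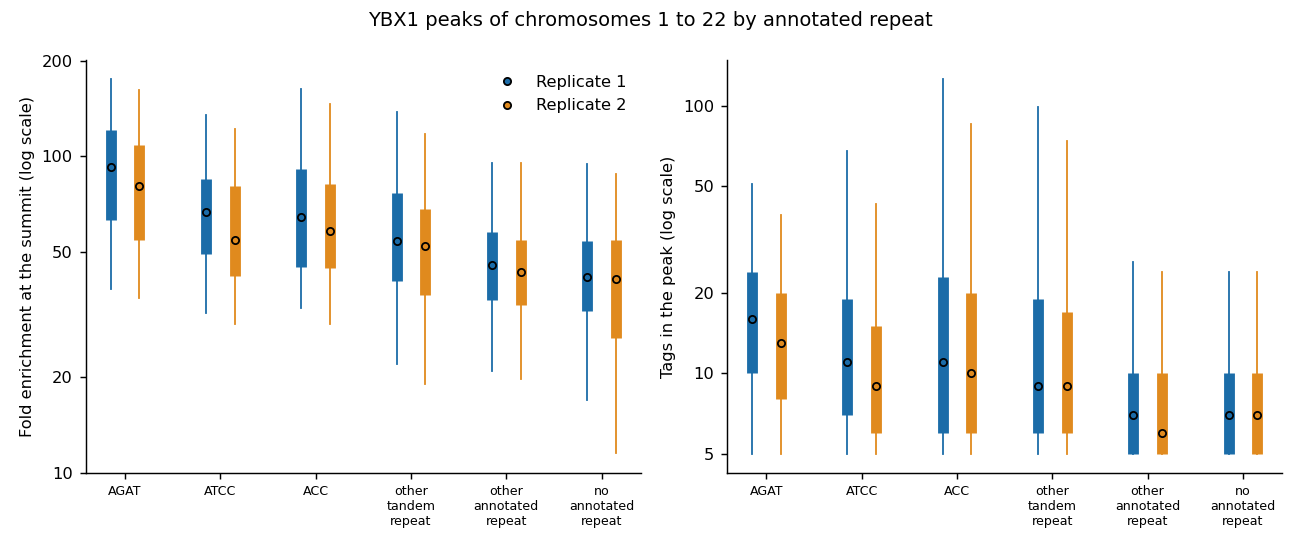
Fold enrichment at the summit (left) and tags per peak (right), both on log scales, for peaks of chromosomes 1 to 22 grouped by annotated repeat, in replicate 1 (blue) and replicate 2 (orange). Circles are medians, thick bars run over the middle 50% of peaks and thin lines from the 5th to the 95th percentile; AGAT peaks have the highest median in both panels, at 92.4 and 80.6 for fold enrichment and 16 and 13 for tags.

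AGAT peaks also held more tags at the median, though not at the upper end. Their median was 16 tags in replicate 1 and 13 in replicate 2, against 11 and 9 for ATCC peaks and 7 in both lists for peaks without a repeat. Peaks with 5 tags, the fewest in either list, made up 5.81% and 6.58% of AGAT peaks, against 14.2% and 16.8% of ATCC peaks and 32.4% and 33.2% of peaks without a repeat. At the other end 238 and 131 AGAT peaks held over 50 tags, and 27 and 14 held over 200. ATCC peaks, fewer in all, had 313 and 131 over 50 tags. The 95th percentile of tags was 51 and 39 for AGAT peaks and 68 and 43 for ATCC peaks. It was 125.6 and 85.45 for ACC peaks, and 24 in both lists for peaks without a repeat. In all, AGAT peaks collected 1.02% of the kept tags of replicate 1 and 0.778% of those of replicate 2, over 492354 bp and 408925 bp.

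The peaks were narrow, with a median width of 84 bp in replicate 1 and 79 bp in replicate 2, and 81.9% and 85.9% were under 120 bp. The peak caller worked with an estimated fragment length of 20 bp, less than the 36 bp of a tag, and how the widths depend on that setting was not tested. The background could not fall below the genome-wide level. Over low input each tag at the summit therefore adds 13.5 to the fold enrichment of a replicate 1 peak and 13.6 to that of a replicate 2 peak. Fold enrichment rested on that level for 42.0% of AGAT peaks in replicate 1 and 40.2% in replicate 2, against 49.4% and 45.9% of ATCC peaks and 26.6% and 23.4% of peaks without a repeat. Among AGAT peaks of this kind the summit was 7 tags high at the median in replicate 1 and 6 in replicate 2, with a range of 3 to 23 and 3 to 19.

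AGAT peaks recurred between the libraries more often than those of any other class. A peak counted as found when 1 bp or more of it was covered in the other list, as was so for 53.8% of all replicate 1 peaks and 77.5% of all replicate 2 peaks. The shares for AGAT peaks were 84.6% in replicate 1 (95% Wilson interval 83.6% to 85.6%) and 95.6% in replicate 2 (94.98% to 96.2%), a mean of 90.1% ± 7.78 (SD, n = 2). ATCC peaks had 63.1% and 90.05%, and ACC peaks 63.3% and 89.4%. The replicates share their input library, so the lists are not independent of each other, and the differences between classes were not tested.

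Recurrence was also compared at equal tag numbers. In replicate 1, at 5 tags, 33.8% of AGAT peaks were found (28.5% to 39.6%) and 29.9% of ATCC peaks (26.4% to 33.6%), whose intervals overlap. From 6 tags up to 50 the AGAT share was above the ATCC share in each range of tags. At 11 to 15 tags, for example, the shares were 89.2% (87.1% to 90.9%) and 71.1% (67.7% to 74.2%). The intervals treat peaks as independent, yet the 4327 ATCC peaks of replicate 1 lay in 2287 loci of peaks within 1 kb. The classes were not tested against each other. In replicate 2 the classes were closer, with 98.7% and 96.9% at 11 to 15 tags and 86.6% and 84.45% at 6 to 7 tags. At 16 to 20 tags the AGAT share was 99.86% and the ATCC share 100%. Above 50 tags every AGAT peak and every ATCC peak of both lists was found in the other.

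**Figure D2:**
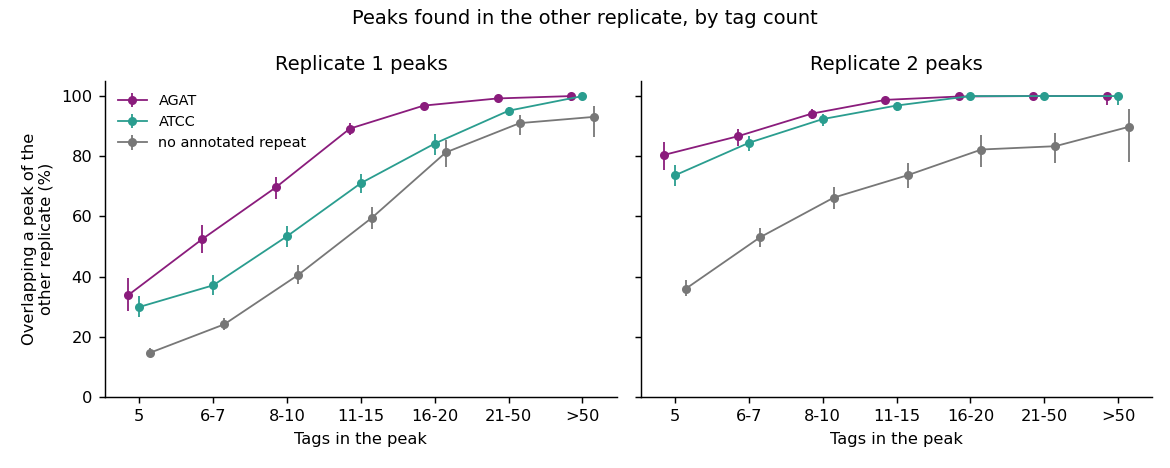
Share of peaks that overlap a peak of the other replicate, by the number of tags in the peak, for AGAT repeats, ATCC repeats and peaks without an annotated repeat on chromosomes 1 to 22. Bars are 95% Wilson intervals; in replicate 1 (left) AGAT peaks are the highest from 6 to 50 tags, and in replicate 2 (right) both repeat classes lie above peaks without a repeat.

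AGAT peaks that were not found, 719 in replicate 1 and 190 in replicate 2, were weak. They had a median of 7 and 6 tags, against 17 and 14 for those found, and median fold enrichments of 53.9 and 54.4, against 94.8 and 81.6. The strongest of them held 30 tags in replicate 1 and 17 in replicate 2, and 10 of the replicate 1 peaks had over 20. Of the peaks that were found, not all met an AGAT peak. In replicate 1, 3579 overlapped an AGAT peak, 213 met a peak with no repeat in its annotation and 148 a peak annotated to another kind of repeat. In replicate 2 these numbers were 3671, 279 and 187.

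Overlapping AGAT peaks of both lists merged into 3495 shared AGAT regions, of which 3322 (95.05%) consisted of 1 peak in each replicate. For ATCC repeats 1654 of 2256 regions (73.3%) did. The summits of the strongest peaks lay a median of 10 bp apart between replicates, with 53.1% of regions within 10 bp, against 17 bp and 35.9% for ATCC regions. The median AGAT region had 18 tags in replicate 1 and 14 in replicate 2, against 16 and 11 for ATCC regions. Replicate 1 had more tags in 2495 AGAT regions, replicate 2 in 762, and both had the same number in 238. The median ratio of replicate 1 to replicate 2 was 1.29 for AGAT regions and 1.43 for ATCC regions, although the libraries kept nearly the same number of tags.

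Across the 3495 regions, log2 fold enrichment of the replicates had a Pearson's r of 0.62 and a Spearman's rho of 0.593. The points share the input library, and all were called in both lists. Over the 1310 regions where both folds rest on the genome-wide background, r was 0.493 and rho 0.490. For ATCC regions the values were 0.629 and 0.600 over all 2256.

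**Figure D3:**
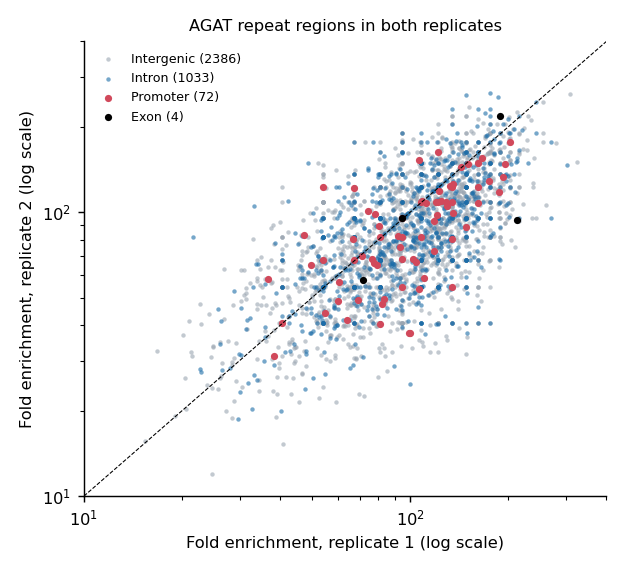
Fold enrichment of the 3495 AGAT repeat regions found in both replicates, replicate 1 on the x axis and replicate 2 on the y axis, both on log scales, with a point for each region coloured by position and the dashed line at equal values. The medians are 99.35 in replicate 1 and 81.6 in replicate 2, and the 72 promoter regions, with medians of 105.4 and 85.9, lie among the rest.

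Shared AGAT regions lay mainly between genes. Of the 3495, 2386 were intergenic (68.3%, with a 95% Wilson interval from 66.7% to 69.8%). A further 1033 lay in introns (29.6%, 28.1% to 31.1%), 72 at promoters (2.06%, 1.64% to 2.59%) and 4 in exons (0.114%, 0.0445% to 0.294%). ATCC regions were in introns more often, in 1110 of 2256 cases (49.2%, 47.1% to 51.3%), and between genes less often, in 1089 (48.3%, 46.2% to 50.3%). Intergenic, intronic and promoter regions had similar medians. Median fold enrichment in replicates 1 and 2 was 98.3 and 81.6 between genes, 100.9 and 81.6 in introns, and 105.4 and 85.9 at promoters. The 4 exon regions had 142 and 94.7, with median tags of 61.5 and 40.5, against 18 and 14 tags between genes and in introns. No gene at all was named for 1131 AGAT regions (32.4%), against 249 ATCC regions (11.04%). Counted per peak, AGAT peaks had no gene named in 32.6% of cases in replicate 1 and 31.9% in replicate 2. For all peaks of chromosomes 1 to 22 these shares were 20.9% and 20.6%. How AGAT repeats as such are placed relative to genes was not analysed here.

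Within a chromosome, AGAT peaks were not concentrated at the ends. In replicates 1 and 2, 3.955% and 4.12% lay in the first 5 Mb and 4.36% and 4.28% in the last 5 Mb before the final peak of the chromosome. For ATCC peaks the shares were 11.4% in both lists for the first 5 Mb, and 18.7% and 20.2% for the last. All peaks of chromosomes 1 to 22 had 5.945% and 6.39% in the first and 11.65% and 12.4% in the last 5 Mb.

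AGAT peaks seldom lay beside another AGAT peak, whereas ATCC and ACC peaks mostly lay beside a peak of their own class. Another AGAT peak of the same list lay within 1 kb of 13.4% of AGAT peaks in replicate 1 (95% Wilson interval 12.5% to 14.4%) and of 15.1% in replicate 2 (14.1% to 16.2%). ATCC peaks had an ATCC neighbour at that distance in 67.3% and 68.5% of cases, and ACC peaks an ACC neighbour in 74.5% and 81.1%. At 200 bp the shares were 11.8% and 13.2% for AGAT and 63.5% and 64.0% for ATCC. AGAT peaks within 1 kb of each other fell into 4310 loci in replicate 1 and 3957 in replicate 2, and 94.0% and 93.3% of these loci held 1 peak. Where AGAT peaks did follow each other, the median gap was 26 bp and 30.5 bp, and for ATCC peaks it was 33 bp and 39 bp. A locus held up to 8 and 6 AGAT peaks, and up to 14 and 21 ATCC peaks. Several peaks can lie on 1 repeat array, so these shares count peaks and not arrays. AGAT and ATCC peaks rarely met: 1.58% and 1.98% of AGAT peaks had an ATCC peak within 1 kb. These differences were not tested.

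**Figure D4:**
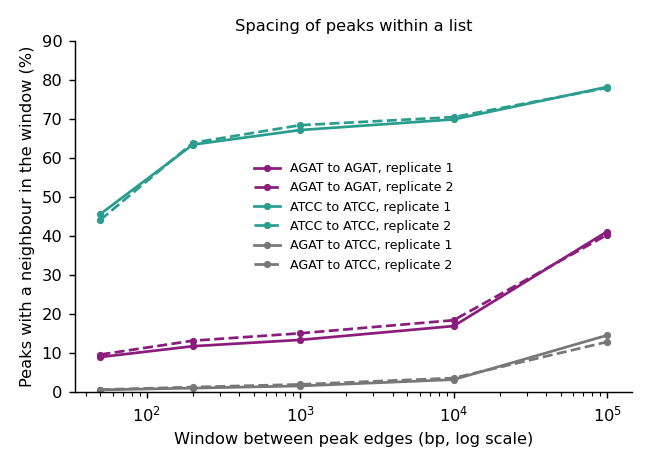
Share of peaks with a neighbour of the named class in the same list within a window between peak edges (x axis, log scale), for AGAT peaks beside AGAT peaks, ATCC beside ATCC and AGAT beside ATCC; solid lines are replicate 1 and dashed lines replicate 2. At 1 kb the AGAT lines stand at 13.4% and 15.1% and the ATCC lines at 67.3% and 68.5%.

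Many peaks that the annotation places outside tandem repeats lay beside an AGAT peak. Within 200 bp of an AGAT peak were 1597 of 5828 peaks without an annotated repeat in replicate 1 (27.4%, 95% Wilson interval 26.3% to 28.6%) and 982 of 3730 in replicate 2 (26.3%, 24.9% to 27.8%). Of peaks annotated to other repeats such as LINE, LTR and SINE elements, 1766 of 5030 (35.1%, 33.8% to 36.4%) and 1080 of 3153 (34.3%, 32.6% to 35.9%) did. The median gap lay between 77 bp and 82 bp. Seen from the repeat, 48.5% of AGAT peaks in replicate 1 and 36.8% in replicate 2 had such a peak at their side, against 25.01% and 15.5% of ATCC peaks. These neighbours had a median of 7 tags in replicate 1 and 6 in replicate 2, and peaks of the same classes elsewhere had a median of 6 or 7. The share that the density of peaks alone would give was not computed.

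Long AGAT regions were few: 79 of 3495 spanned over 500 bp, and the median was 100 bp. Those named next were chosen after their values were seen. The longest (chromosome 21, 11141322 to 11143626) lay near genes of the BAGE family of tumour antigens. It had 1026 and 788 tags and fold enrichments of 68.35 and 55.5. The BAGE genes are near-identical copies, so the placement of tags there is uncertain. A TAGA repeat between PDE9A, a cyclic GMP phosphodiesterase gene, and SLC37A1 (chromosome 21, 44048385 to 44050033) had 857 and 629 tags and fold enrichments of 135 and 137. KIRREL3, a gene of a synaptic adhesion protein, held an intronic TCTA repeat (chromosome 11, 126791083 to 126792280) with 558 and 420 tags. An intron of TRPM2, a calcium-permeable channel gene, held a TAGA repeat (chromosome 21, 45801265 to 45802398) with 334 and 255 tags. The AGAT locus of most peaks was an intron of VSTM1, an immune receptor gene, with 8 peaks in replicate 1 (chromosome 19, 54548444 to 54549444) and 6 in replicate 2.

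The 15 strongest AGAT regions, ranked by the lower of their fold enrichments, lay in introns in 6 cases and between genes in 9, and 6 of the 15 had no gene named. Of these regions 8 were TCTA and 7 TAGA. On chromosome 6, which held 221 of all 3495 shared AGAT regions, lay 5 of the 15, a count made after the values were seen. Their lower fold enrichment was between 193 and 261, yet their tags ranged from 28 to 589 in replicate 1 and from 25 to 547 in replicate 2. A high fold occurred in long regions, up to 1270 bp, and in short ones, down to 99 bp. The intergenic TAGA repeat near RALGPS2, a guanine nucleotide exchange factor gene, led the list with 589 and 547 tags. An intron of ADARB2, a gene of the ADAR family of RNA-editing enzymes, held a TCTA region (chromosome 10, 1675668 to 1675854) with fold enrichments of 199 and 213 and 49 and 30 tags. PKIB, which encodes an inhibitor of protein kinase A, held one of 208 and 197 (chromosome 6, 122955016 to 122955144), with 28 and 31 tags. FNDC1, a gene of a fibronectin domain protein, held one of 220.5 and 196 (chromosome 6, 159689588 to 159690857), with 414 and 307 tags. Between the cytochrome P450 genes CYP2A13, CYP2B6 and CYP2F1 of chromosome 19 lay a short region (41527535 to 41527633) of 207.5 and 197, with 30 and 26 tags. The strongest region with no gene named was a TAGA repeat of chromosome 6 (85280131 to 85280387) at 256 and 245, with 72 and 58 tags. The others of the group lay in introns of PIK3R5, LOC643542 and CSMD1, near HMP19, and away from named genes on chromosomes 2, 4, 6 and 13.

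Of 10460 genes named for any peak of chromosomes 1 to 22, 3306 (31.6%) were named for a shared AGAT region, and 908 (8.68%) had one in their promoter, exons or introns. Of the 908 genes, 753 had 1 such region, 106 had 2 and 49 had 3 or more. Gene length was not taken into account. CSMD1, a complement regulator gene of chromosome 8, had 7 regions in introns, with fold enrichments from 67.4 to 193 in replicate 1 and from 47.8 to 204 in replicate 2. DPP10, which encodes an auxiliary subunit of Kv4 potassium channels, had 6, with the strongest at 175 and 231 (chromosome 2, 115638926 to 115639253). CDH12, a cadherin gene, had 6, the strongest by the lower fold at 139 and 190.4. CNTNAP2, a neurexin family gene, had 6, and none exceeded 108 in replicate 1 or 81.6 in replicate 2. KCNIP4, another partner of Kv4 channels, had 5, from 72.6 to 175 in replicate 1 and from 75.3 to 122 in replicate 2.

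Other genes with many regions were of a different kind. CYP4F3, a leukotriene hydroxylase gene of chromosome 19, had 5 regions in a stretch from 15753966 to 15767591. Of these, 4 were intronic, with the strongest at 175 and 149.6, and 1 was classed as promoter. VSTM1 had 5, all within its intronic repeat and all of modest strength, from 43.9 to 67.9 in replicate 1 and from 34.2 to 64.6 in replicate 2. MACROD2, a gene of an ADP-ribose hydrolase, had 5, GPC5, a glypican gene, had 4, and MGAT4C, a glycosyltransferase gene, had 4. The strongest of these was in GPC5, at 209 and 137.

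Promoter-class AGAT peaks numbered 92 in replicate 1 and 94 in replicate 2, and named 104 genes in all. The strongest region after those of C17orf98 and ABCA6, a gene of a lipid transporter, was that of C16orf97 (chromosome 16, 52109742 to 52109894) with fold enrichments of 162 and 149.6 and 26 and 19 tags. OR6X1, an olfactory receptor gene, had 60 and 46 tags (chromosome 11, 123626745 to 123626865, fold enrichment 196 and 148). FYCO1, an adaptor for autophagosome transport, had 22 and 20 tags (chromosome 3, 46039613 to 46039705, 150.5 and 148). CASQ2, the calcium store protein of heart muscle, had 31 and 27 tags (chromosome 1, 116309486 to 116309604, 193 and 134). The pseudogenes CYP2G1P, GGT3P and GOLGA8DP and the sperm protein gene ADAM18 completed the 10 strongest. Near-identical copies of GGT3P and GOLGA8DP exist elsewhere in the genome, so the placement of their tags is uncertain.

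RefSeq windows of GRCh38, from 250 bases before to 50 bases after a gene's start, were at hand for 62 of the 104 genes and were searched for 3 AGAT units in a row, in any rotation and on both strands. None of the 62 genes, which had 90 windows, had such a run, and 5 of all 35116 windows (0.0142%) did. With a run so rare in all windows, its absence from 90 tells little. With 2 units in a row, a length chosen after that result, 1 of the 62 genes did, CYP4F2. Over all windows the share was 0.897%, which is counted per window and not per gene. No match says only that these letters are not in this window, and the lists do not give the reach of the promoter class.

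Exon-class regions were 4, and 3 of these lay in exons of non-coding RNA genes. LINC01510 had fold enrichments of 189 and 218 with 84 and 57 tags (chromosome 7, 116240823 to 116241222), and LOC283045 had 94.4 and 95.2 with 11 and 9 tags. LOC100507530 stood at 213 in replicate 1 and 94.2 in replicate 2, with 39 and 24 tags. PLAT, the gene of tissue plasminogen activator, had a region with 128 and 74 tags at fold enrichments of 71.96 and 57.95, where the strongest replicate 1 peak was classed as exon and that of replicate 2 as intron.

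Among genes of the pathways and lineages tied to JAK2-mutated cells, shared AGAT regions were named for some members of most lists. The counts below are descriptions beside the 31.6% of all named genes, and the lists were not tested. Of haematopoietic transcription factors 6 of the 12 named genes had one. BCL11A, the repressor of fetal globin, had 2 intergenic regions, the stronger at fold enrichments of 121 and 136. GATA2, which acts in blood stem cells, had one at 160.1 and 117 (chromosome 3, 128298660 to 128298780), in a stretch also named for RPN1. ERG, an ETS factor gene, had 4 regions, the strongest at 83.7 and 85.9 in a stretch also named for ETS2. LYL1, a basic helix-loop-helix factor gene, had one at 64.7 and 83.1. These strongest regions were all intergenic.

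Of all 10460 named genes, 3989 were named for an AGAT peak of replicate 1 and 3800 for one of replicate 2. Among the 10 erythroid genes named, 7 had an AGAT peak in replicate 1 and 1 in replicate 2, and a shared region was left for 1. This was GYPC, which encodes glycophorin C of erythrocytes, with 221 and 131 tags and fold enrichments of 109 and 101.1 (chromosome 2, 127494456 to 127495287). The globin genes HBB, HBD, HBG1, HBG2 and HBE1 were all named for the same TAGA peak of replicate 1 (chromosome 11, 5205578 to 5205650, 16 tags, fold enrichment 63.6). A replicate 2 peak of 12 tags and fold enrichment 96.6 lay at that place (5205591 to 5205647), but its annotation named no repeat, so it was not counted as AGAT. Of megakaryocyte and platelet genes VWF alone had a shared region, 1 of 6.

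In the JAK-STAT list 4 of 15 named genes had one, all between genes. SOCS5 and SOCS1, whose proteins restrain cytokine signalling, stood at 111 and 81.4 and at 67.4 and 95.2. STAT4 had 107 and 80.7, and JAK1 had 71.7 and 38.99. JAK2 was named for a peak, but for no AGAT peak in either list. In the MAPK-ERK and MNK list 4 of 16 named genes had a shared AGAT region. RPS6KA2, a kinase gene downstream of ERK, carried one in an intron at 80.9 and 60.3. DUSP6, which encodes a phosphatase that inactivates ERK, had an intergenic region at 90.85 and 122, and SPRED1, an inhibitor of RAS signalling, one at 80.8 and 59.5. Of the splicing factors 1 of 9 had one, SRSF3 (91.5 and 134), in a stretch also named for CDKN1A. Of the 3 Y-box and cold-shock domain genes named (YBX1, CSDC2 and LIN28B), chosen for mention after their values were seen, 0 did, and no AGAT peak was named for them in either list.

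Some AGAT repeats in or near genes are typed in forensic genetics, and 5 genes were looked up for that reason, so that an AGAT annotation there is no finding in itself. Of these genes, 4 were named for a peak and all 4 had a shared AGAT region, which lay within the gene for 3. The remaining gene, C1orf198, was named for no peak, but whether its introns hold a marker was not checked. VWF, von Willebrand factor, whose intron holds the marker vWA, had 122 tags in replicate 1 and 100 in replicate 2 over a TAGA region of chromosome 12 (6092680 to 6093216), at fold enrichments of 169.8 and 224. CSF1R, the receptor of a macrophage growth factor and host of the marker CSF1PO, had 26 and 12 tags over a TCTA region of chromosome 5 (149455845 to 149455969), at 148 and 68. LARS2, a mitochondrial tRNA synthetase gene, had 19 and 15 tags in an intron (chromosome 3, 45582182 to 45582294), at 119.7 and 84.5. The region of SEMA3A, an axon guidance gene, was intergenic, at 121 and 109. It was therefore not a repeat of an intron, where the list of genes places the marker. The lists do not name the markers themselves.

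AGAT regions were spread over the chromosomes more evenly than ATCC regions. Their density, with the end of the last peak taken as the chromosome's length, was 1.215 per Mb in all and ranged from 0.733 to 1.68 per Mb, a ratio of 2.30. ATCC regions ranged from 0.339 to 3.73 per Mb, a ratio of 11.01, with the highest value on chromosome 19. Chromosomes 21, 8 and 18 had the most AGAT regions for their length, at 1.68, 1.59 and 1.54 per Mb. Chromosomes 22, 14 and 17 had the fewest, at 0.733, 0.765 and 0.971 per Mb. Stretches without known sequence were not taken off the length. How AGAT repeats as such are spread over the chromosomes was not analysed here. As a share of all peaks on the chromosome, AGAT peaks were lowest on 22 and 19, with 10.5% each in replicate 1 and 12.7% and 13.8% in replicate 2. They were highest on 5 in replicate 1 (30.3%) and on 13 in replicate 2 (39.4%).

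Chromosome 21 had the most tags and the lowest fold. Its AGAT peaks had the highest median tag number of all chromosomes, 21 in replicate 1 and 20.5 in replicate 2, but the lowest median fold enrichment, 62.4 and 55.7. None of its 108 and 112 AGAT peaks lay at the genome-wide background, which allows a share of up to 2.78% and 2.68%, so the background taken from the input was above that level at each of them. The other peaks of chromosome 21 were alike, at 0.813% and 0.216%. On chromosomes 8 and 1 the share of AGAT peaks at the genome-wide background was 10.8% and 14.1% in replicate 1, and on 14, 16 and 7 it was 79.5%, 80% and 79.1%. Over the 22 chromosomes this share in AGAT peaks and in other peaks had a Pearson's r of 0.925 in replicate 1 and 0.919 in replicate 2. The points share the input library. The input level thus moved with the chromosome, and its part in the order of fold enrichments and of densities was not tested.

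**Figure D5:**
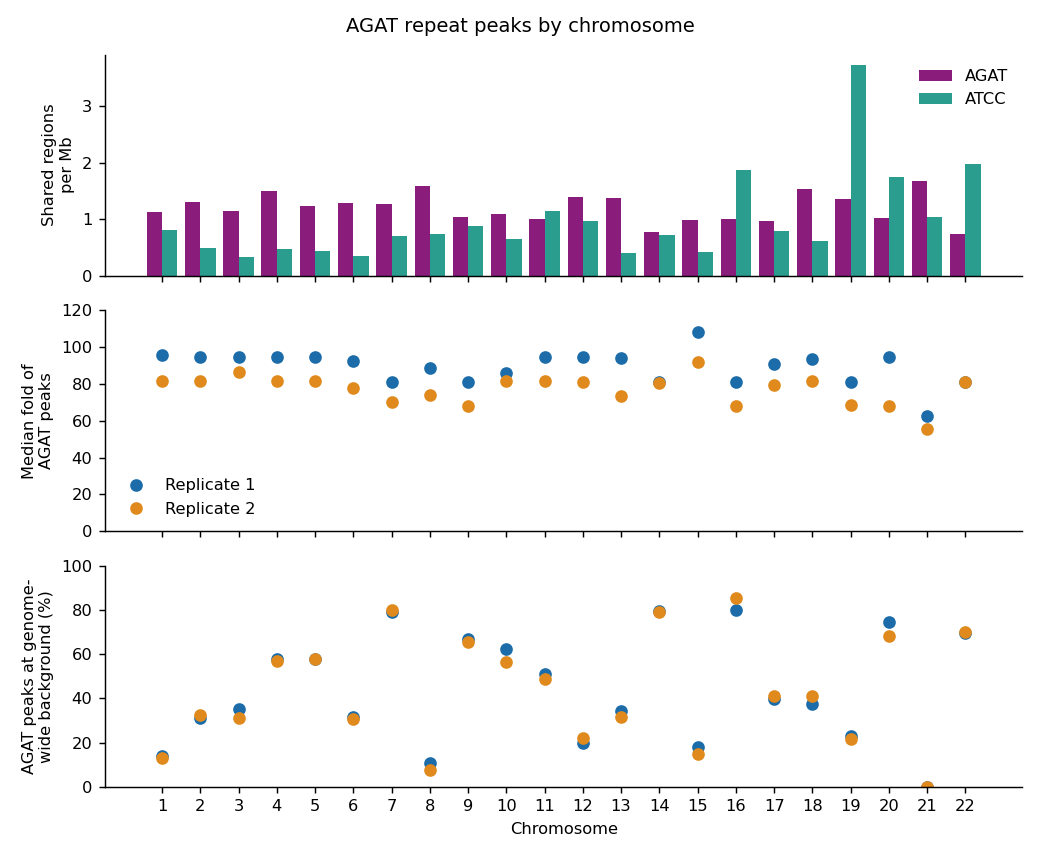
Shared regions per Mb on AGAT and ATCC repeats (top), median fold enrichment of AGAT peaks (middle) and the share of AGAT peaks whose fold rests on the genome-wide background (bottom), for chromosomes 1 to 22. Chromosome 21 has the highest AGAT density (1.68 per Mb), the lowest median fold in both replicates (62.4 and 55.7) and no peak at the genome-wide background.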

How the data were processed

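YBX1 ChIP-seq of 2 replicates and 1 input library was used as peak lists. Bowtie2, hg19, Trimmomatic 0.36, bcl2fastq 02.14.01.07 and MACS 1.4 are listed in the submitters' processing notes. Per the file headers, the authors called peaks with MACS 1.4.2 on each replicate against the same input, without pooling. The p cutoff was 1e-05, the estimated fragment length 20 bp, and 1 tag was kept per position. The rule of the authors' later filter and the settings of the aligner are not given in the sources used here. The deposited tag number is a count of tags per peak. The deposited fold enrichment is a ratio of summit tags to the highest of the genome-wide, 1000 bp and 10000 bp background. Scores in the deposited lists were read as 10 times the negative log10 p-value, from the values, since their column name was lost. The header of the replicate 2 list names an alignment numbered 3, and the label was followed. The deposited false discovery rate is a percent and was 0 for all peaks. The deposited start, end, width and summit are in bp of hg19, counted from 1. Position, genes and repeats are the authors' annotation.

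Repeat units were compared over rotations and strands. Peaks of the lists overlapping by at least 1 bp were paired, and paired AGAT peaks merged into regions; a region's fold is that of its strongest peak in each replicate, its class that of the strongest replicate 1 peak, and its tags the sum over its AGAT peaks. A fold within 0.006 of a whole multiple of the genome-wide unit counted as lying at that background. Shares carry 95% Wilson intervals, and no significance test was made, since the lists form 1 group. Overlap, merging and spacing were checked on simulated peaks. Named were the 15 strongest regions by the lower fold, the 10 genes with the most regions (ties by the strongest region), the 10 strongest promoter regions, exon regions up to 5, up to 4 genes per list by the same measure and the 3 chromosomes with the most and the fewest regions per Mb. A gene that this rule would name is not reported here. The members, gene lists and comparisons were chosen with earlier results of these data known. Alternatives were a score of at least 100, peaks over 5 tags, an overlap of 50% of the shorter peak, X and Y added, other windows, merged peaks and each list alone. Python 3.11.15, pandas 2.3.3, NumPy 2.4.6, SciPy 1.17.1 and matplotlib 3.10.9 were used. Promoter windows are RefSeq sequences of GRCh38, matched by symbol. No hg19 sequence was used.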

Additional observations from a re-analysis of the deposited data

How the results depend on the processing

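The share of AGAT repeats changed with the minimum strength of a peak. It was 24.3% of peaks as reported, 37.8% at a score of at least 100, 29.1% without 5-tag peaks and 38.9% when peaks within 1 kb were merged, and each list alone gave 21.7% to 26.8%. AGAT peaks within 1 kb of another were 14.2% as reported, 10.8% at the stricter score, 12.8% without 5-tag peaks, 20.5% with X and Y added, 12.5% for a window of 200 bp and 17.7% for 10 kb, and 13.4% to 15.1% in each list alone. The log2 difference of AGAT and ATCC medians was 0.32 at the stricter score, 0.41 without 5-tag peaks, 0.44 with X and Y and 0.37 over peaks at the genome-wide background, and 0.47 to 0.57 by list, always positive. The intron share was 27.9% with X and Y added, and 29.91% to 29.95% over the AGAT peaks of each list. The correlation was 0.561 at the stricter score. The cause of these changes was not tested. Median fold enrichment stayed within 1 SD, at 80.6 to 92.4 by list. The number of shared regions ran from 2831 to 3857 and the share found in the other replicate from 87.1% to 90.1%; these need both lists, so neither could be left out. No paired analysis was possible because the replicates form 1 group and no groups were compared. Peaks of 5 to 7 tags limit what recurrence can show.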
